A study of Saccharomyces cerevisiae with 4 samples.

Results

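The genes described here are the 10 whose products make 1 yeast mating type recognise the other. They were found by their common name or open reading frame in the annotation of the deposited array files, and all 10 were matched, on 11 probe sets, out of 5656 genes with a probe set of their own among 9335 probe sets. Expressed in alpha cells are MF(ALPHA)1 (YPL187W), MF(ALPHA)2 (YGL089C), STE3 (YKL178C) and SAG1 (YJR004C). Expressed in a cells are STE2 (YFL026W), MFA1 (YDR461W), MFA2 (YNL145W), STE6 (YKL209C), BAR1 (YIL015W) and AGA2 (YGL032C). MFA1 had 2 probe sets, both with a suffix in their name, and the other 9 genes had 1 each.

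Haploid budding yeast is either of mating type alpha or of mating type a, set by the gene copy present at the MAT locus. An alpha cell secretes alpha-factor, a short peptide cut from a repeat-containing precursor, and senses a-factor, a lipid-modified peptide, through a receptor on its surface. An a cell does the reverse. In alpha cells the protein alpha1 acts with the general factor Mcm1 to switch on the alpha-cell genes, and alpha2 acts with Mcm1 and the corepressor Tup1-Cyc8 to keep the a-cell genes off.

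The cultures overexpressed KIN28, which encodes the kinase subunit of the transcription factor TFIIH, or POG1, whose product promotes the return of cells to growth after arrest by alpha-factor. The groups were the KIN28 culture at 60 min after 200 mM LiCl, the KIN28 culture at 0 min, the POG1 culture at 60 min after 200 mM LiCl and the POG1 culture at 0 min, with 1 array each and 4 in all. The 0 min samples were taken before lithium. All were grown at 25 °C in synthetic medium with 2% glucose. The series title concerns the stress sensitivity of an rsp5 mutant, but the labels give neither the RSP5 genotype nor the mating type of the strain, nor the promoter or plasmid behind each overexpression. The drop-out media lacked leucine, uracil or both, and the labels do not tie a medium to a culture. An empty-vector culture and an untreated culture at 60 min were not analysed here, so a change over time combines lithium with time in culture.

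Signals are given as multiples of the median of their array over all probe sets. The deposited medians lay between 41.8 and 60.6. Values under the 20th percentile of their own array, 0.210 to 0.224 times the median, were raised to it as a floor, and the 95th percentile of 13 negative control probe sets gave a stricter level, which was 0.25 to 0.568 over the 4 arrays and lowest on the KIN28 array at 60 min. The overexpressed genes followed the labels. KIN28 lay at 64.9 or above on the arrays of its own culture and at 1.16 or below on the others, and POG1 lay at 58.2 or above on the arrays of its own culture and at 0.219 or below on the others. The control probe set for the 3' end of the 25S ribosomal RNA moved with time. It gave 0.882 at 60 min and 91.9 at 0 min in the KIN28 culture, and 0.642 at 60 min and 73.2 at 0 min in the POG1 culture. The ratio of 3' to 5' signal, a measure of RNA integrity, was 1.31 to 1.92 for ACT1, 2.34 to 3.83 for SPT15 and 3.70 to 7.5 for SRB4 over the 4 arrays. For SRB4 it was 4.32 at 60 min and 7.5 at 0 min in the KIN28 culture, and 4.65 at 60 min and 3.70 at 0 min in the POG1 culture. The part of either in the results below was not tested. Judged by pairs of probe sets for the same gene, the spread (SD) of 1 probe set around its gene was 0.66 on the log2 scale in the KIN28 change over time and 0.64 in that of POG1, and 0.56 and 0.54 between cultures at 0 and 60 min.

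Markers of both mating types were first set against background, since the labels name neither type. The 4 alpha-cell genes lay above the negative controls on every array, with a summed signal of 23.0 at 60 min and 80.0 at 0 min in the KIN28 culture and of 10.3 at 60 min and 99.3 at 0 min in the POG1 culture. Of the 6 a-cell genes, none did so on every array. MFA2 did so on 3 arrays, STE2 and STE6 on 1 each, and MFA1, BAR1 and AGA2 on 0. The summed signal of the 6 was 1.17 to 2.41. Alpha-cell markers were thus above the negative controls on all arrays, whereas some a-cell markers were on some arrays. The a-cell genes reached at most 2.93 times that level, for MFA2 in the KIN28 culture at 60 min, where 3 of the 6 exceeded it. As a multiple of the median, MFA2 was brighter in the POG1 culture at 60 min, at 1.35 against 0.732. The negative control level was 0.25 on the KIN28 array at 60 min and 0.456 to 0.568 on the others, so this maximum and count depend on it. The lowest alpha-cell value was 1.44 times that level, for STE3 in the POG1 culture at 60 min, so the ranges overlapped. Of the mating type loci, the 3 probe sets for HMRA1, which encodes a1, lay below the floor on all 4 arrays, with 0.183 as their highest value, whereas the 2 probe sets shared by MATALPHA1 and HMLALPHA1 and the 2 shared by MATALPHA2, HMLALPHA2 and HMRA2 lay above the negative controls on all 4. In RNA from whole cultures, fewer cells that express a gene and less RNA per cell cannot be told apart.

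**Figure D1:**
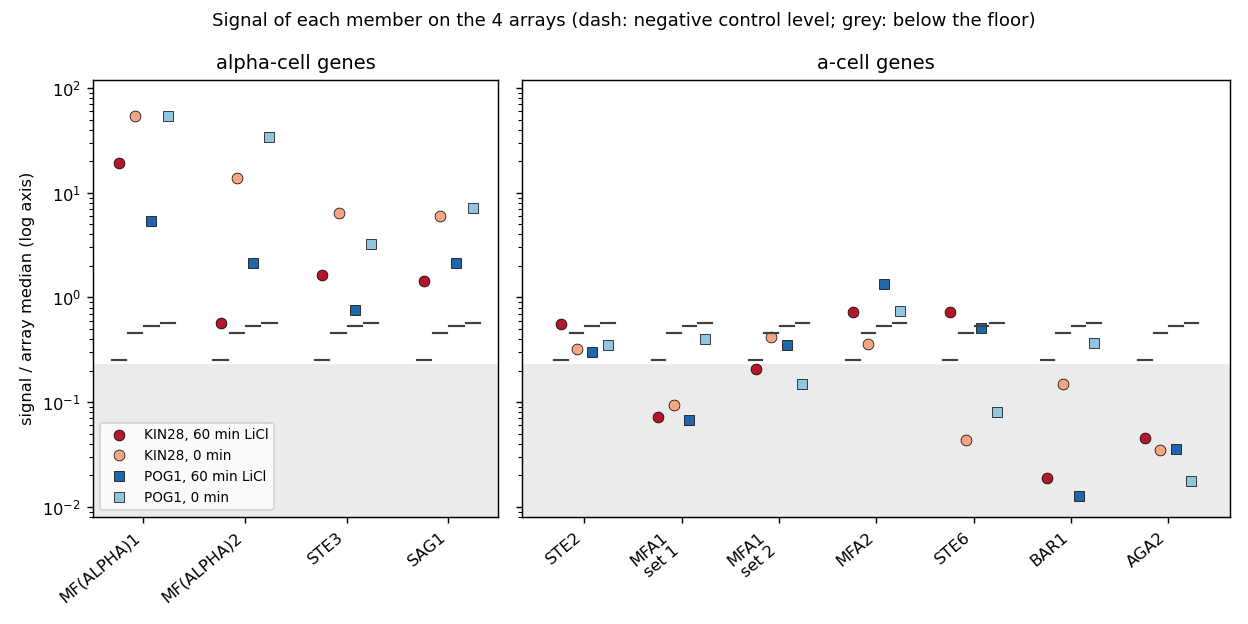
Signal of each gene, as a multiple of the array median on a log axis, for the 4 arrays (points), with the negative control level of each array (dashes) and the region below the floor (grey). The alpha-cell genes reach 54.6 times the median and stand lower at 60 min than at 0 min in both cultures, while the a-cell genes stay at or below 1.35.

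The first question is how the alpha-cell genes changed over 60 min in lithium. All 4 were at least 2-fold lower at 60 min in the KIN28 culture and all 4 in the POG1 culture. Among all genes measured, 11.8% were at least 2-fold lower in the KIN28 culture and 15.2% in the POG1 culture. The median log2 change of the 4 was -2.02 in the KIN28 culture and -2.72 in the POG1 culture, against 0.03 and -0.07 over all genes. The members were chosen with earlier results of these arrays known, so these counts are a description and no independent support.

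MF(ALPHA)2, the minor of the alpha-factor precursor genes, gave 0.567 times the median at 60 min and 13.8 at 0 min in the KIN28 culture, and 2.13 at 60 min and 34.4 at 0 min in the POG1 culture. It was 24.4-fold lower at 60 min in the KIN28 culture and 16.1-fold lower in the POG1 culture. Both values at 60 min exceeded the negative controls of their arrays, and both values at 0 min lay above both values at 60 min.

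MF(ALPHA)1, which supplies most of the alpha-factor, gave 19.4 at 60 min and 53.9 at 0 min in the KIN28 culture, and 5.32 at 60 min and 54.6 at 0 min in the POG1 culture. Its signals at 0 min were nearly equal, and those at 60 min were not. It was 2.78-fold lower at 60 min in the KIN28 culture and 10.3-fold lower in the POG1 culture.

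STE3, the receptor for a-factor, gave 1.62 at 60 min and 6.38 at 0 min in the KIN28 culture, and 0.766 at 60 min and 3.23 at 0 min in the POG1 culture. The changes were close, 3.93-fold lower at 60 min in the KIN28 culture and 4.22-fold lower in the POG1 culture. SAG1, the alpha-agglutinin by which alpha cells adhere to their partner, gave 1.43 at 60 min and 5.93 at 0 min in the KIN28 culture, and 2.11 at 60 min and 7.07 at 0 min in the POG1 culture. It was 4.16-fold lower at 60 min in the KIN28 culture and 3.35-fold lower in the POG1 culture.

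**Figure D2:**
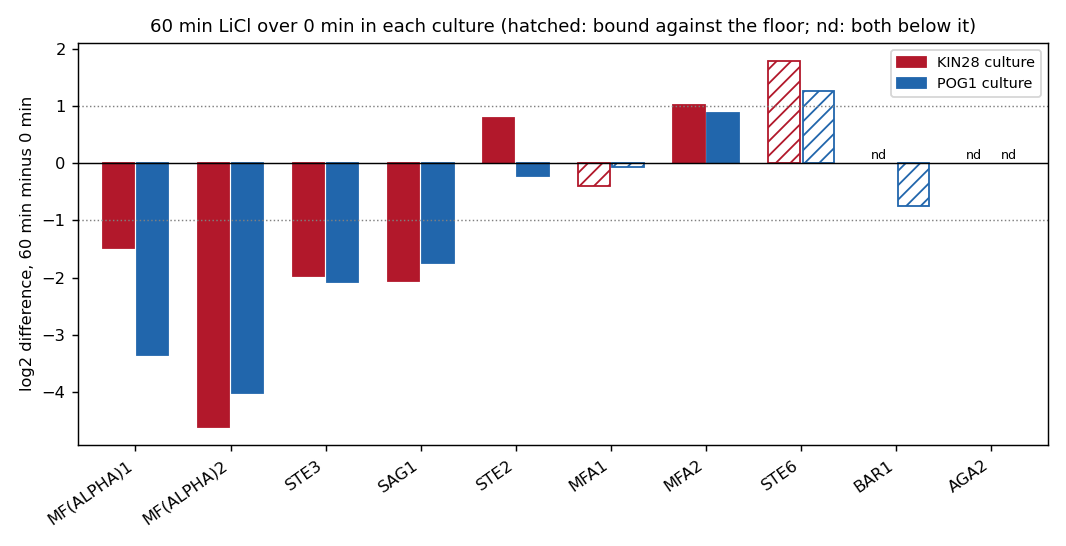
Log2 difference of 60 min minus 0 min for each gene in the KIN28 and POG1 cultures (bars), with dotted lines at a 2-fold change. Hatched bars are computed against the floor, and nd marks genes at or below it at both times. The 4 alpha-cell genes lie below -1 in both cultures, and MF(ALPHA)1 is the alpha-cell gene whose bars differ most, -1.48 and -3.36.

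A test is possible for what the cultures share. A limma fit over 5537 genes with culture as a block takes the KIN28 and POG1 changes over time as repeats of each other, although the cultures differ in the overexpressed gene, and leaves 1 residual degree of freedom per gene. Nothing in the labels says that the arrays came from separate cultures grown on different occasions, so its p-values do not reach beyond these arrays. They rest mostly on a variance pooled over genes, with 7.12 prior degrees of freedom beside the 1 of the gene itself. In this fit 12.7% of the genes were lower and 10.4% higher at an adjusted p under 0.05. All 4 alpha-cell genes fell, and their adjusted p stayed under 0.05 in all 8 alternative fits. The log2 effect of MF(ALPHA)2 was -4.31 ± 0.25 (SE), with an adjusted p of 5.7e-05. STE3 had -2.03 ± 0.27 (adjusted p = 0.0016), SAG1 -1.90 ± 0.25 (adjusted p = 0.0015) and MF(ALPHA)1 -2.42 ± 0.38 (adjusted p = 0.0033). The interval of MF(ALPHA)1 was the widest of the 4, -3.30 to -1.54. Its changes of -1.48 in the KIN28 culture and -3.36 in the POG1 culture both lay outside that interval. AFB1, another gene expressed in alpha cells, which encodes a secreted protein that blocks a-factor, was not among the 10. It gave 4.51 at 60 min and 14.7 at 0 min in the KIN28 culture and 3.62 at 60 min and 13.7 at 0 min in the POG1 culture, and it too fell, by 1.81 on the log2 scale (SE 0.22, adjusted p = 0.0010).

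**Figure D3:**
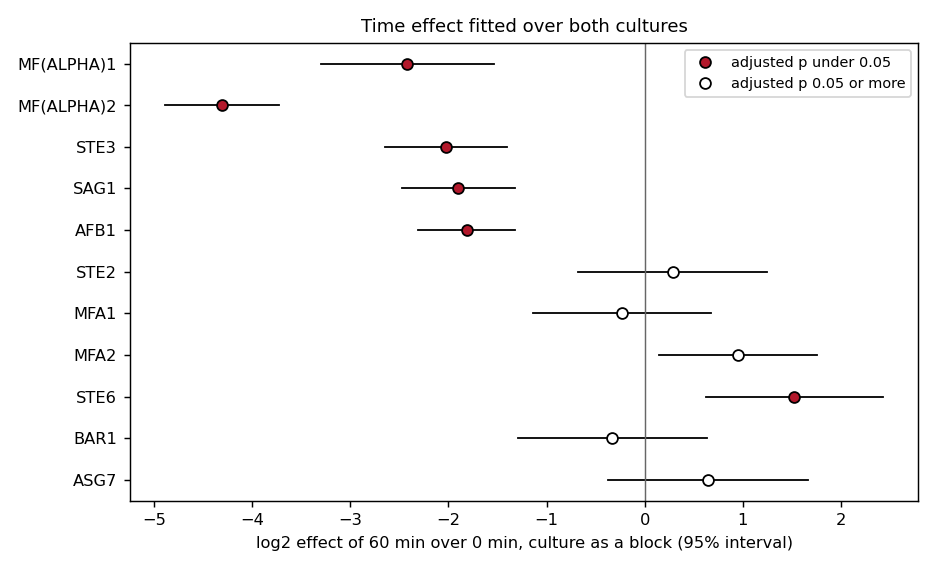
Log2 effect of 60 min over 0 min from the limma fit with culture as a block (points) with its 95% interval (lines). MF(ALPHA)1, MF(ALPHA)2, STE3, SAG1 and AFB1 lie below 0. STE6 lies above it on values set to the floor at 0 min. MFA2 also lies above it, with an interval of 0.15 to 1.76 and an adjusted p of 0.088. The intervals of STE2, MFA1, BAR1 and ASG7 include 0, and those of MFA1, BAR1 and ASG7 rest in part on values set to the floor.

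None of the a-cell genes exceeded the negative controls on every array. Of the 6, 4 could be compared over time in the KIN28 culture and 5 in the POG1 culture. At least 2-fold higher at 60 min were 2 of them in the KIN28 culture and 1 in the POG1 culture, where 12.7% and 11.7% of all genes were (24.5% and 26.9% moved by 2-fold either way). None was at least 2-fold lower with the scaling and floor used here. BAR1, which gives only a bound in the POG1 culture, passed 2-fold lower there with no scaling and with hybridization controls (log2 difference -1.08 in each). In these 2 settings the median log2 change of all genes in that culture was -0.41 and -0.40. BAR1 also passed there with no floor (-4.84). MFA2, an a-factor precursor gene, gave 0.732 at 60 min and 0.360 at 0 min in the KIN28 culture and 1.35 at 60 min and 0.734 at 0 min in the POG1 culture. Its signal was 2.04-fold higher at 60 min in the KIN28 culture and 1.84-fold higher in the POG1 culture. It lay above the negative controls on 3 arrays, the exception being the KIN28 culture at 0 min. With values raised to the negative control level the KIN28 difference was 0.68 on the log2 scale, at least 1.61-fold, and with the floor at the 40th percentile it was 0.17. MFA2 missed the threshold in the limma fit (log2 effect 0.95, 95% interval 0.15 to 1.76, adjusted p = 0.088).

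STE6, the transporter that exports a-factor, gave 0.728 at 60 min and 0.0435 at 0 min in the KIN28 culture, and 0.506 at 60 min and 0.0801 at 0 min in the POG1 culture. Both values at 0 min were below the floor, so it was at least 3.46-fold higher at 60 min in the KIN28 culture and at least 2.40-fold higher in the POG1 culture. It passed the limma fit with a log2 effect of 1.53 ± 0.39 and an adjusted p of 0.026. However, STE6 entered that fit only through its 60 min values, and both 0 min values were set to the floor. The p-value is therefore no support for a rise. The negative control level ended that call: set to it, the effect was 0.29 with an adjusted p of 0.57, since only the KIN28 value at 60 min exceeded the controls of its array.

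STE2, the alpha-factor receptor, gave 0.560 at 60 min and 0.324 at 0 min in the KIN28 culture and 0.299 at 60 min and 0.348 at 0 min in the POG1 culture. Only the KIN28 value at 60 min exceeded the negative controls of its array, whose level of 0.25 was the lowest of the 4 arrays. BAR1, the protease with which a cells degrade alpha-factor, gave 0.0188 at 60 min and 0.150 at 0 min in the KIN28 culture and 0.0127 at 60 min and 0.364 at 0 min in the POG1 culture. Only the last value was above the floor, which made it at least 1.68-fold lower at 60 min in the POG1 culture. AGA2, the adhesion subunit of a-agglutinin, was at or below 0.0459 on every array. The MFA1 probe sets disagreed with each other. In the first the brightest array was the POG1 culture at 0 min, at 0.397, and in the other it was the KIN28 culture at 0 min, at 0.418, and neither value exceeded the negative controls. The limma effects of STE2, MFA1 and BAR1 were 0.28, -0.23 and -0.33, with adjusted p-values of 0.68, 0.72 and 0.63. BAR1 entered the fit only through its POG1 value at 0 min, with the others set to the floor. With no floor its effect was -3.92 (adjusted p = 0.28). Most of the MFA1 probe set values were below the floor. These p-values are thus no evidence that BAR1 or MFA1 stayed unchanged. ASG7, a further a-cell gene outside the 10, was above the floor on 1 array, at 0.501 in the KIN28 culture at 60 min.

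The next question is whether the cultures differed. At 60 min, MF(ALPHA)1 was 3.65-fold higher in the KIN28 culture than in the POG1 culture and STE3 2.12-fold higher, while MF(ALPHA)2 was 3.76-fold lower. SAG1 was 1.48-fold lower, a direction that turned (log2 difference 0.22) when arrays were scaled by their hybridization controls. At that time 7.02% of all genes were at least 2-fold higher in the KIN28 culture, 3.66% at least 2-fold lower and 10.7% either. At 0 min, MF(ALPHA)2 was lower by 2.49-fold, STE3 higher by 1.97-fold, SAG1 lower by 1.19-fold and MF(ALPHA)1 lower by 1.01-fold in the KIN28 culture, where 3.55% of all genes were higher and 4.04% lower by 2-fold (7.59% in all). Of the a-cell genes compared, 0 of 4 reached 2-fold at 60 min and 1 of 4, MFA2, at 0 min, where it was 2.04-fold lower. That count was 0 with either higher floor, where the log2 difference of MFA2 was -0.17 (40th percentile) and -0.69 (negative controls). The difference for STE3 at 60 min was under 2-fold when arrays were scaled by the median of probe sets above the floor or by the 75th percentile. STE3 thus stood higher and MF(ALPHA)2 lower in the KIN28 culture at both times.

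**Figure D4:**
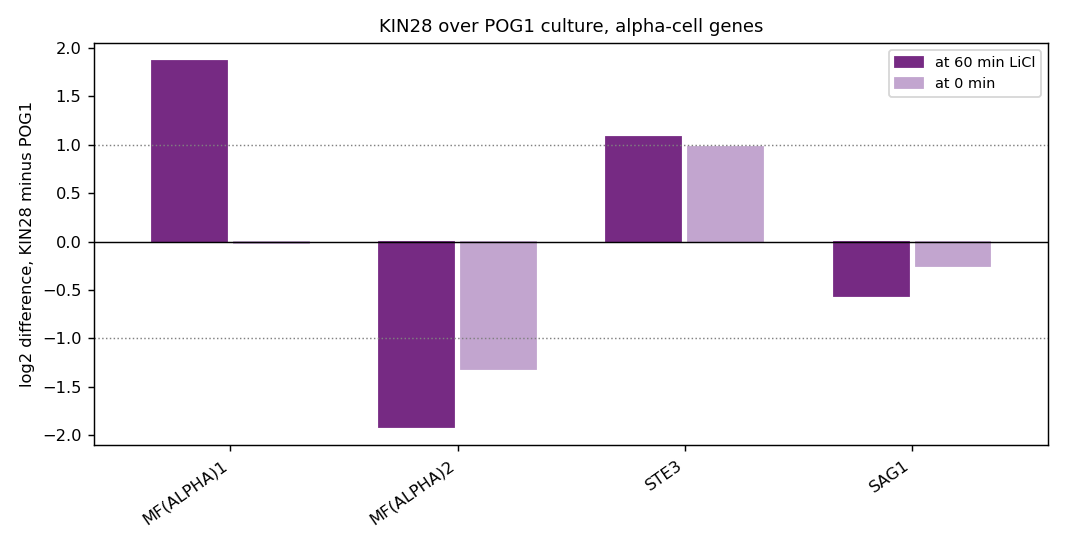
Log2 difference of the KIN28 minus the POG1 culture for the alpha-cell genes at 60 min and at 0 min (bars), with dotted lines at a 2-fold difference. MF(ALPHA)2 lies below -1 at both times, STE3 lies at 1.08 and 0.98, and MF(ALPHA)1 reaches 1.87 at 60 min with -0.02 at 0 min.

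With time as a block, the limma fit called 1 gene higher and 1 lower between the cultures, 0.0181% of the genes tested each way. None of the 9 genes tested here passed, and 4 had an unadjusted p under 0.05, as did 654 of the 5537 genes tested in all. MF(ALPHA)2 had a log2 effect of -1.61 (95% interval -2.19 to -1.04, adjusted p = 0.15), STE3 1.03 (0.41 to 1.65, adjusted p = 0.38), MF(ALPHA)1 0.92 (0.04 to 1.81, adjusted p = 0.41) and SAG1 -0.41 (-0.99 to 0.17, adjusted p = 0.55). The call on MF(ALPHA)2 depended on the setting. Its adjusted p ranged from 0.0081 to 0.49 over the alternatives.

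The difference of the changes over time, KIN28 minus POG1, has no test, since it uses up the last degree of freedom. It was 1.89 for MF(ALPHA)1 on the log2 scale, against -0.60 for MF(ALPHA)2, 0.10 for STE3 and -0.31 for SAG1. The spread of 1 probe set in this difference was 0.70, and of all genes 8.92% differed at least 2-fold in the direction of MF(ALPHA)1, 6.23% in the opposite one and 15.2% in either. The signs of the differences for MF(ALPHA)2, STE3 and SAG1 depended on the scaling. Of the alpha-cell genes, MF(ALPHA)1 alone differed by more than the spread of 0.70 with the main scaling, and its lowest value in any setting was 1.74. The spread comes from probe sets on the same arrays and does not measure variation between repeat arrays or between cultures. MF(ALPHA)2 passed that spread with 75th percentile scaling (-0.74) and quantile normalization (-0.78). STE3 passed it with no scaling (0.81) and hybridization controls (0.88), where the median over all genes was 0.83 and 0.90. STE2 also reached 2-fold, at 1.01, on signals that mostly lay below the negative controls.

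The genes of the MAT locus are read by probe sets that cannot tell MAT from the silent copies HML and HMR. The 2 probe sets for alpha1, the activator of the alpha-cell genes, were lower at 60 min in both cultures. The first gave 1.08 at 60 min and 1.93 at 0 min in the KIN28 culture and 0.840 at 60 min and 2.11 at 0 min in the POG1 culture. The other gave 3.13 at 60 min and 6.62 at 0 min in the KIN28 culture and 2.69 at 60 min and 8.72 at 0 min in the POG1 culture. They were 1.79-fold and 2.11-fold lower in the KIN28 culture and 2.51-fold and 3.24-fold lower in the POG1 culture. The alpha1 sets stayed lower under each of 5 other scalings. The 2 probe sets that read alpha2 together with a2 were 2.16-fold and 1.81-fold higher at 60 min in the KIN28 culture and 1.07-fold and 1.45-fold higher in the POG1 culture. With no scaling or with hybridization controls, the first of them turned in the POG1 culture to log2 differences of -0.24 and -0.23. Since they match several genes, none of the 4 entered the limma fit.

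**Figure D5:**
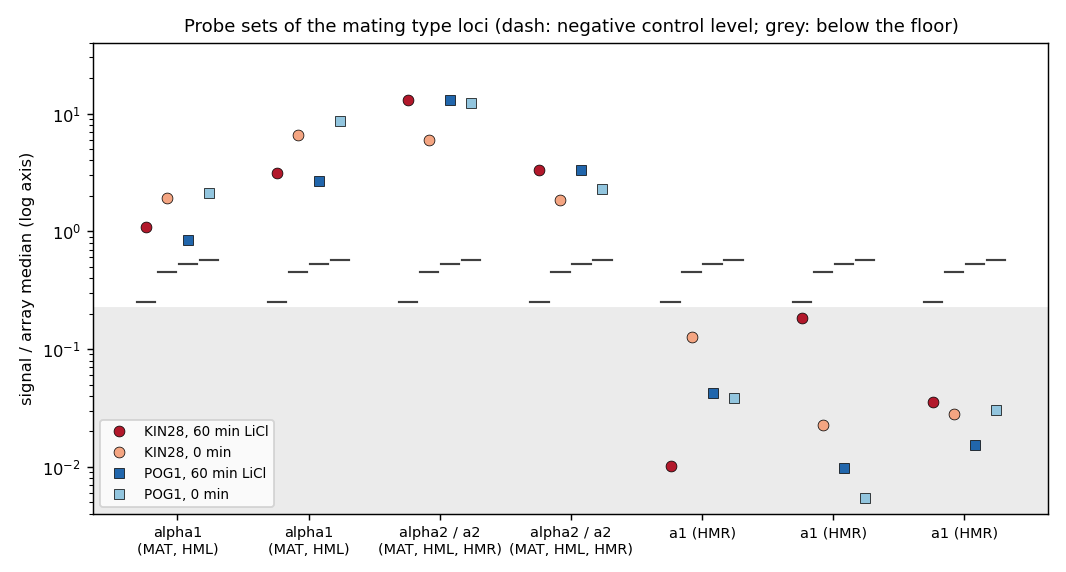
Signal of the probe sets for genes at MAT, HML and HMR as a multiple of the array median on a log axis, for the 4 arrays (points), with the negative control level of each array (dashes) and the region below the floor (grey). The alpha1 sets are lower at 60 min than at 0 min in both cultures, the sets for alpha2 and a2 are not (1 of them turns in the POG1 culture with no scaling or hybridization controls), and the a1 sets stay at or below 0.183.

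Other genes around mating type mostly missed the threshold of the limma fit, as did most of the 5537 genes tested. Over all genes 12.7% fell and 10.4% rose. Of 11 regulators tested, 1 fell and 0 rose. SIR4, a silencing factor, and KAR4, a transcription factor of mating, had effects of -0.51 and 0.89 (adjusted p = 0.38 and 0.11). CYC8, the corepressor subunit that acts with Tup1, was the one that fell (log2 effect -1.29, adjusted p = 0.018). MCM1, the partner of both alpha1 and alpha2, gave 4.36 at 60 min and 4.45 at 0 min in the KIN28 culture and 4.99 at 60 min and 3.76 at 0 min in the POG1 culture, with an effect of 0.19 and an adjusted p of 0.63. Of 10 pheromone processing genes, 0 passed in limma and 1 had an unadjusted p under 0.05. Of the 5537 genes tested, 1955 did. The processing gene was STE13, a peptidase that trims alpha-factor, with an effect of 0.66 and an adjusted p of 0.10. The effects of AXL1 and STE23, proteases of a-factor maturation, differed in sign between the cultures. KEX2, the protease that cuts the alpha-factor precursor, had an effect of -0.15.

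Of 12 haploid-specific genes, 2 fell and 1 rose, beside 12.7% and 10.4% of all genes. FAR1, which arrests the cell cycle in response to pheromone, fell by 1.64 on the log2 scale (adjusted p = 0.0067). STE4, the beta subunit of the G protein behind the pheromone receptors, fell by 0.91 (adjusted p = 0.019). RME1, a repressor of meiosis, rose by 1.46 (adjusted p = 0.016). Of 12 pheromone-induced genes tested, PRM4 alone passed and fell by 1.81 (adjusted p = 0.0064), while AGA1, the anchor subunit of a-agglutinin, and FIG2, a cell wall adhesin, had effects of -0.89 and 0.82 (adjusted p = 0.11 and 0.17). FIG1, which is strongly induced by pheromone, was below the floor on all 4 arrays. FUS1, likewise induced, was below it in the KIN28 culture and at 0.273 at 60 min and 0.251 at 0 min in the POG1 culture. Both POG1 values of FUS1 were below the negative controls of their arrays. FIG2 exceeded the negative controls only in the KIN28 culture at 60 min. Of 7 genes of meiosis tested, 0 passed in limma and NDT80, an activator of meiotic genes, had an unadjusted p of 0.049 (adjusted p = 0.14). The fit tests change over time and does not say whether diploid cells were present. IME1 and IME2, inducers of meiosis, had effects of -0.52 and 0.27. They lay at 0.655 to 1.48 and at 0.617 to 1.09, above the negative controls on all 4 arrays. NDT80 exceeded these controls on some arrays only, and several other genes of the list were below the floor on some or all arrays. Between the cultures 0 genes of any of these lists passed in limma, where 0.0181% of all genes passed each way. At an unadjusted p under 0.05 were 4 haploid-specific and 2 pheromone-induced genes, and 654 of the 5537 genes tested.

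Among 4934 other genes above the floor on all 4 arrays, those whose log2 profile lay closest to the mean profile of the 4 alpha-cell genes were DPH5, NMD3, ALB1, FUR1 and RPS28B, at Euclidean distances of 0.11 to 0.30 over the 4 arrays. RPS28B has a near-identical copy and is uncertain. The nearest to STE3 alone were SUN4, PHO90 and POL12, at 0.21 to 0.37. MF(ALPHA)2 had no gene as near. Its closest were NSR1 at 1.35, HXT2 at 1.56 and RPS22B, which also has a close copy, at 1.71. Within the alpha-cell genes, MF(ALPHA)2 stood 2.70 to 3.51 from the other members, and the other members stood 0.98 to 1.80 from each other. These distances rest on 4 arrays and describe them alone.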

How the data were processed

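Poly(A)-enriched RNA was labelled and 15 µg of cRNA hybridized to an Affymetrix yeast S98 array per sample at 45 °C for 18 h, per the labels and the design text of the series. The deposited values are an intensity, linear and already summarised for each probe set by the authors, and a deposited ratio, that intensity over the array median, per the file headers and the values. The summarising software is not given in the sources used here. The files have no detection calls, and the table of the whole series held the same intensities to rounding. The files hold 9335 probe sets, 60 of them controls. In GEO's platform annotation 6504 matched 1 gene, 328 several and 2443 none.

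The intensity was divided by the array median, raised to the floor where lower, and averaged as log2 per gene over its probe sets without a suffix, or over the suffixed ones where a gene had no other. Scalings, floors, thresholds and fit settings were varied. Differences were called at 2-fold when a gene was above the floor on at least 1 array compared. The limma fit (lmFit, eBayes with a trend, Benjamini-Hochberg over 5537 genes above the floor on at least 1 array, threshold 0.05) had culture and time as terms. On simulated data it recovered 178 of 200 genes changed by 2 on the log2 scale among 5656, with 15 false calls. The simulation changed only genes above the median signal, gave both cultures the same change and set no floor. Its counts are therefore not error rates for these arrays. The number of arrays limits the precision. Named genes were the 10 members, up to 3 genes per list with the largest changes and those past the threshold in limma, and the nearest profiles. MCM1, KEX2, FUS1, FIG1 and ASG7 were named for their role, after their values were seen. Members and the 6 gene lists were chosen with earlier results of these data known. Gene names came from RefSeq (R64), and no coordinates were used. Python 3.11.15, numpy 2.4.6, pandas 2.3.3, R 4.3.3 and limma 3.58.1 were used.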

Additional observations from a re-analysis of the deposited data

Results flagged for a closer look

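Genes above the floor on all 4 arrays were looked at again when their log2 change over time had opposite signs in the cultures. STE2 had 0.79 in the KIN28 culture and -0.22 in the POG1 culture. AXL1, a protease gene for a-factor maturation, had -1.18 in the KIN28 culture and 0.60 in the POG1 culture, and STE23, its relative, -0.55 in the KIN28 culture and 0.84 in the POG1 culture. IME1, an activator of meiosis, had -1.18 in the KIN28 culture and 0.13 in the POG1 culture. With 1 array per group none of these differences was tested.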

How the results depend on the processing

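All 4 alpha-cell genes stayed lower over time in both cultures under each scaling, floor and value table tried. At a threshold of 3-fold, 3 of 4 remained in the KIN28 culture. With no scaling the median log2 change of all genes was 0.40 in the KIN28 and -0.41 in the POG1 culture, and with hybridization controls 0.48 and -0.40. The smallest alpha-cell change was then -1.02, for MF(ALPHA)1 in the KIN28 culture. The a-cell genes at least 2-fold higher over time in the KIN28 culture, 2 in the report, were 1 with 75th percentile scaling, quantile normalization or a threshold of 3-fold, and 0 with the floor at the 40th percentile or at the negative controls. In the POG1 culture, 1 in the report, they were 0 with no scaling, hybridization controls, either higher floor or 3-fold, and 2 with no floor or 1.5-fold. The alpha-cell genes higher in the KIN28 than the POG1 culture at 60 min were 1, not 2, with the median of probe sets above the floor, 75th percentile scaling or 3-fold. At 0 min 1 was higher at 1.5-fold and 0 lower at 3-fold. The a-cell genes at least 2-fold lower over time were 0 in the report. They were 1 in the KIN28 culture with no floor, and 1 in the POG1 culture with no scaling, hybridization controls, no floor or 1.5-fold. Those lower at 0 min in KIN28 than in POG1 cells, 1 in the report, were 0 with either higher floor or 3-fold and 2 with no scaling, no floor or 1.5-fold. In the difference of the changes over time, hybridization controls gave 0.18 for MF(ALPHA)2 and 0.47 for SAG1, and the lowest value for STE3 was -0.04. The cause was not tested. Genes called between cultures in limma were 23 with 75th percentile scaling, 11 with the negative control floor and 4 with detection on all arrays, against 2 in the report, and members 1, MF(ALPHA)2, in the first and the second of these settings. The culture effect of STE2 changed sign to -0.12 with the negative control floor and that of STE6 to -0.18 with no floor, neither past the threshold. With the negative control floor only 1 STE2 value was its own signal, so its effect there also carries differences between the control levels of the arrays. Of 180 alternative log2 differences of alpha-cell genes 168 moved by less than the probe set spread, and of 170 of a-cell genes 143. Scalings of the mating type locus probe sets were added after seeing the data. The labels give no replicate numbers, so the limma fit paired the arrays by culture and no other pairing was run.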
